A study of Mus musculus with 8 samples.

Results

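The T cell receptor loci of a B cell line were examined for Rad21, the kleisin that closes the cohesin ring, in 8 ChIP-seq libraries. All deposited peaks were taken that overlap 3 windows of the mm9 genome: chr14:53000000-54900000 for the alpha and delta chains up to the neighbouring gene Dad1, chr6:40800000-41550000 for the beta chain, and chr13:19200000-19500000 for the gamma chain. The window bounds are approximate. The 3 windows held 166 of the 199072 peaks of the 8 lists. Merged across libraries where they overlapped by at least 1 bp, these peaks formed 50 of the 64772 regions of the whole series: 40 on the alpha and delta window, 2 on the beta window and 8 on the gamma window.

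T cell receptor loci are built from variable, diversity, joining and constant segments that developing T cells recombine. The delta chain locus lies inside the alpha chain locus, and an enhancer lies between the alpha constant gene Trac and Dad1, a housekeeping gene for protein glycosylation. Cohesin extrudes chromatin loops and halts at bound CTCF, and in thymocytes such sites help to fold these loci. B cells do not assemble or use them. In the RefSeq gene order (GRCm38.p6 build, used here for order only), the 130 Trav entries come first, the Trdd, Trdj and Trdc genes of the delta chain follow, then the 60 Traj entries, Trac and Dad1. On chromosome 6 the Trbv genes surround trypsin genes, and the Trbd, Trbj and Trbc genes, Trbc1 among them, stand near the end. No gene table or sequence of the mm9 build was used, so that no peak was placed in Trac, Trdc or Trbc1 and no peak sequence is shown.

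CH12F3 cells are murine B lymphoma cells that can switch their antibody class from IgM to IgA in culture. Every library came from AID-/- derivatives stimulated for 3 days with anti-CD40, IL4 and TGF-β, and the lines differed in the engineered Igh locus and in their parent cells. FS_Ca lines (Iγ3-FS-Cα) carry a Cg3-Ia deletion with full-length Sg3 and Sa, made in a parent with VH to 3'BCEs deleted on the non-coding IgH allele. FS_Ia lines (Iγ3-FS-Iα) carry a Cg3-Ca deletion with full-length Sg3 and Sa in aInv cells. PS_Ca and PS_Ia lines (Iγ3-PS-Cα and Iγ3-PS-Iα) have an Sg3-Sa deletion that leaves partial switch regions, in the same respective parent cells. Each of the 4 genotypes has 2 libraries, and nothing in the labels says that these came from separate cultures or clones, so the p-values measure only the spread between these libraries. Ca against Ia is called orientation below, and FS against PS switch length. The Ca and Ia lines come from different parent cells, so orientation and parent cannot be told apart. Peak lists hold no expression values, so the B cell label was not checked against marker genes.

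List lengths ran from 11288 to 47461 peaks. Read numbers were not used here, and the depth behind a list shows only in its background, 0.223 to 0.862 fragments per position, and in its lowest called summit, 3 to 5 fragments. A region missing from a list was therefore under the calling limit of that list and is not shown to lack Rad21. The background is one value per list, and how well reads map within the windows was not examined. Low peak numbers in a stretch are thus numbers of called peaks only. By the prefix of their peak names the libraries formed 3 sets. One set was FS (4 libraries), one was replicate 1 of both PS genotypes and one was replicate 2 of both, so that switch length and set cannot be told apart.

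Within the alpha and delta window, called Rad21 peaks were gathered toward the Dad1 end. All 5 regions held by every library lay within one stretch of 181 kb, 9.55% of the window, that ends 40.0 kb before the window does. Of these 5, 3 lay in the last 200 kb, the end that was compared with the remainder. The last 200 kb of the window carried 37.5 ± 25.1 peaks per Mb, against 4.85 ± 2.63 in the remaining 1.7 Mb (SD, n = 8). Per library, the end held 3 and 13 peaks in FS_Ca replicates 1 and 2, 3 and 5 in FS_Ia, 10 and 3 in PS_Ca, and 7 and 16 in PS_Ia. The remaining part held 7 and 12, 4 and 5, 16 and 3, and 8 and 11 peaks in the same order. The end was denser in 8 of 8 libraries, by 2.90 ± 0.46 on the log2 scale with 1 peak added to each count (SD; exact two-sided sign-flip permutation over libraries, p = 0.00781, the smallest that 8 libraries allow). The added peak by itself favours the shorter stretch, so the plain difference was also taken. It was 32.6 ± 23.1 peaks per Mb, again higher at the end in 8 of 8 libraries (exact sign-flip p = 0.00781). The stretch of 1.9 Mb that adjoins this end outside the window was itself rich in peaks, with 26 to 178 per list (median 73.5). The 1.9 Mb before the window held 20 to 87 (median 42.5). Whether the end differs from the stretch beyond it was not tested.

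**Figure D1:**
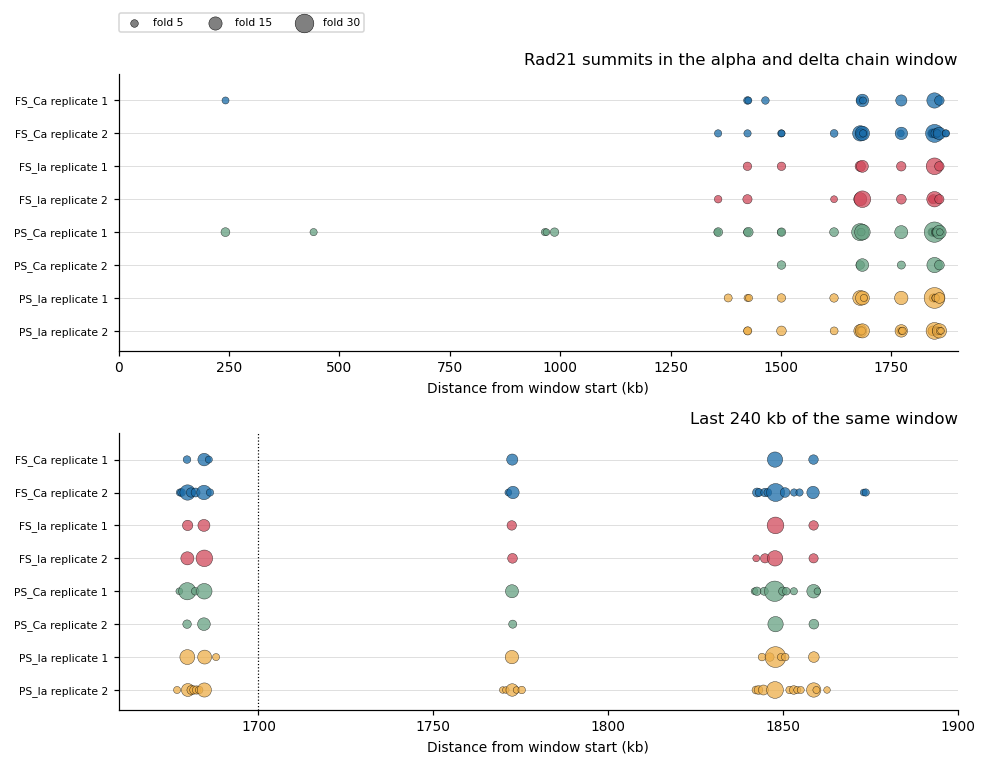
Rad21 summits in the alpha and delta window, one line per library, with distance from the window start in kb on the horizontal axis; symbol area follows the authors' fold enrichment and colour the genotype. The upper panel shows the whole window and the lower panel its last 240 kb, with a dotted line at 200 kb before the end. Summits of all 8 libraries stand in 3 groups near the right edge, which hold the largest symbols but also small ones. PS_Ca replicate 1 alone has several summits in the left part.

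The strongest site of the T cell receptor loci was at chr14:54845451-54851328. The authors' fold enrichment, which is the summit height plus 1 over the library's expected background plus 1, was 20.1 and 27.7 there in FS_Ca replicates 1 and 2, 23.98 and 20.4 in FS_Ia, 35.6 and 20.2 in PS_Ca, and 37.0 and 24.2 in PS_Ia. These folds belong to each list and are not compared in size between lists. The summits were 24 to 62 fragments high and lay within 254 bp of each other, around position 54847853. In 7 of 8 libraries it was the tallest peak of the alpha and delta window. In FS_Ia replicate 2 a neighbour at chr14:54682866-54686319 was taller, with a fold of 23.7. Within its list the site stood at a percentile of 0.127 to 3.62, where 0 is the strongest peak. Among the 6747 regions that all 8 libraries held anywhere in the genome, it came in place 36 by its median rank.

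A close pair of sites lay on the variable gene side of the other 3 shared sites, its nearer summit 88.1 kb from the next. Its members, chr14:54678532-54681653 and chr14:54682866-54686319, were 1.21 kb apart, with summits 4.81 kb apart. By list percentile the second of the pair was the steadier one. Its folds were 13.6 and 17.9 in FS_Ca replicates 1 and 2, and 12.4 and 23.7 in FS_Ia. They were 13.9 and 20.9 in PS_Ca replicates 2 and 1, and 16.6 and 17.2 in PS_Ia. This second site stood at list percentiles of 1.89 to 10.3, so that it was among the stronger peaks in every list. The first of the pair was uneven, at list percentiles of 0.557 to 78.6. Its fold was 5.02 in FS_Ca replicate 1 and 6.30 in PS_Ca replicate 2, with summits of 6 and 9 fragments. In FS_Ca replicate 2 it was 20.2 and in PS_Ca replicate 1 25.4, with summits of 34 and 44 fragments. The FS_Ia libraries had 9.28 and 14.7 and the PS_Ia libraries 19.1 and 14.5. The spread between replicates of one genotype thus covered nearly the whole range of the first site: list percentiles went from 78.6 to 1.11 within FS_Ca and from 0.557 to 57.6 within PS_Ca.

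The other 2 sites of the alpha and delta window that all libraries held were weaker than the strongest site in every list. The site at chr14:54771989-54773999, between the pair and the strongest site, had folds of 10.8 and 13.3 in FS_Ca replicates 1 and 2, 7.74 and 8.18 in FS_Ia, 14.7 and 5.67 in PS_Ca, and 15.4 and 13.4 in PS_Ia. The site at chr14:54858091-54860017, toward the window's end, had folds of 7.89 and 13.3 in FS_Ca, 7.74 and 7.36 in FS_Ia, 15.8 and 8.19 in PS_Ca, and 9.86 and 17.7 in PS_Ia. Its summit lay 11.0 kb from that of the strongest site. Summit heights were 8 to 25 and 8 to 32 fragments in the 2 sites. Their list percentiles were 5.41 to 71.4 (median 11.7) and 1.82 to 41.1 (median 27.0).

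Between these sites the spacing was uneven. Going from the pair toward Dad1, the gaps between the 5 regions were 1.21, 85.7, 71.5 and 6.76 kb, against a median gap of 127 kb between regions of all 8 libraries genome-wide. Of the 35 regions of the window that not all libraries held, 17 lay within 10 kb of one of the 5. In the gamma window 3 of 7 such regions lay within 10 kb of its shared region. The genome-wide share was not taken, and the median gap between neighbouring regions of any recurrence was 4.35 kb genome-wide. Chained at gaps of up to 10 kb, the 40 regions formed 14 groups. The 3 groups with the shared sites spanned 38.5 kb together and held 22 of the 40 regions and 88 of the 126 peaks. The group with the strongest site alone had 10 regions over 21.1 kb, and there a single list broke the region of the strongest site into up to 4 peaks.

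The variable gene side of the window was nearly empty of called peaks. From the window start to the first region held by at least 6 libraries there were 1424 kb, 74.9% of the window, with 11 peaks in all 8 lists together. PS_Ca replicate 1 had 7 of them, the FS_Ca libraries 1 each, FS_Ia replicate 2 and PS_Ia replicate 1 had 1 each, and FS_Ia replicate 1, PS_Ca replicate 2 and PS_Ia replicate 2 had 0. Of the 8 regions in this stretch 6 were found in 1 library, 5 of these in PS_Ca replicate 1, with folds of 3.95 to 6.21. The widest gap without a peak in any list ran for 524 kb, between chr14:53441479-53441724 and chr14:53965418-53965889. Both of its edges were peaks of PS_Ca replicate 1 alone, so in the other 7 lists the empty stretch was longer. Gaps at least this wide made up 1.08% of the 64751 gaps between regions genome-wide. For the widest gaps of the beta and gamma windows the shares were 2.67% and 6.46%. Each gap was picked as the widest of its window, so these shares only describe it. Farther on, chr14:54423876-54424535 was found in 7 libraries, all but PS_Ca replicate 2, with folds of 4.31 to 7.36 and summits of 6 to 8 fragments. The region chr14:54500772-54502046 was found in 6 libraries, not in FS_Ca replicate 1 or FS_Ia replicate 2, with folds of 4.62 to 8.06. In lists of equal length (the 11288 strongest peaks of each) they were left in 2 and 3 libraries.

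The beta window was almost bare of called peaks. It held 2 regions in 0.75 Mb and 8 peaks in all. The region chr6:40843456-40843942 was found in FS_Ca replicate 2, FS_Ia replicate 2 and PS_Ca replicate 1, with folds of 5.78, 5.72 and 7.34. The region chr6:41086750-41087413 was found in both FS_Ca libraries (7.89 and 4.62), FS_Ia replicate 2 (4.09), PS_Ca replicate 1 (6.77) and PS_Ia replicate 2 (3.76). FS_Ia replicate 1, PS_Ca replicate 2 and PS_Ia replicate 1 had no peak in the window. A gap of 243 kb separated the 2 regions. From the second to the window end no list had a peak for 463 kb, the last 100 kb included.

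The gamma window was the smallest and held 3 to 5 peaks in each list. Its one region in all 8 libraries, chr13:19455797-19458457, had folds of 12.2 and 8.67 in FS_Ca replicates 1 and 2, 8.51 and 7.36 in FS_Ia, 12.98 and 6.30 in PS_Ca, and 8.63 and 14.5 in PS_Ia. The strongest summits of that region spread over 1343 bp. The lower end of that spread came from PS_Ca replicate 2, which had 2 peaks there, of 9 fragments at 256.5 kb from the window start and of 8 fragments at 257.8 kb. FS_Ca replicate 1 and PS_Ia replicate 1 also had peaks near both positions, with the stronger one at the farther. A second site, chr13:19269131-19270088, was found in 7 libraries, with folds of 5.67 to 12.4 and summits of 7 to 21 fragments. PS_Ia replicate 2, the longest list, had no peak there but had one at chr13:19268137-19268387, with a fold of 4.83. The region chr13:19384850-19385660, 115 kb beyond the second site, was found in 4 libraries with folds of 4.51 to 5.20, and chr13:19225715-19226188 in the 2 FS_Ia libraries only (6.19 and 4.09).

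**Figure D2:**
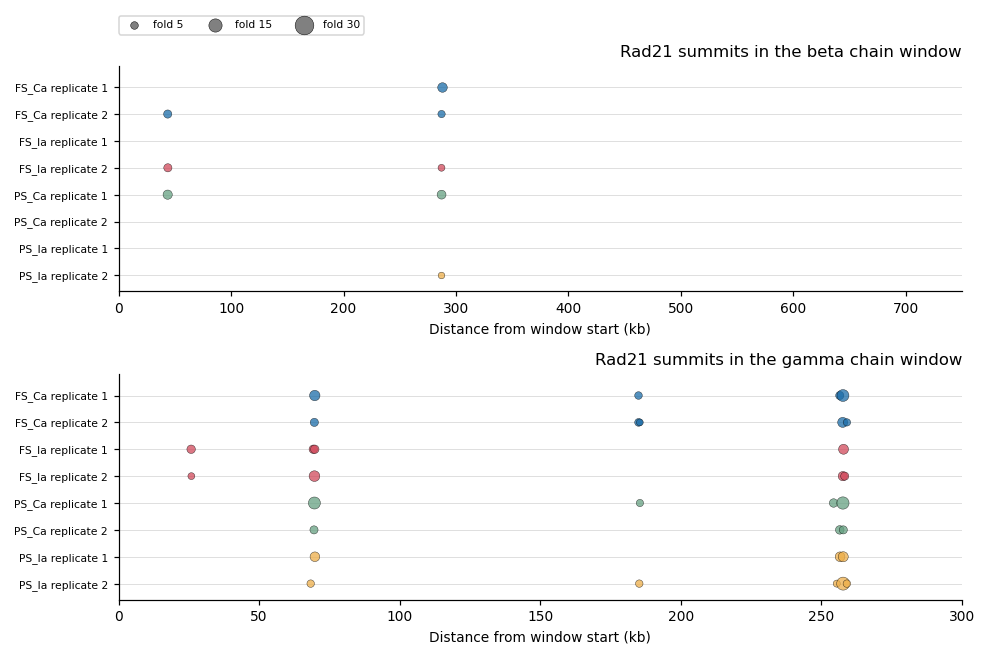
Rad21 summits in the beta window (upper panel) and the gamma window (lower panel), one line per library, with distance from the window start in kb on the horizontal axis; symbol area follows the authors' fold enrichment and colour the genotype. The beta window shows 8 summits at 2 positions and nothing in its right part, whereas the gamma window shows a column near 257 kb in every library and one near 70 kb in most.

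The density of peaks was then compared with 3 references measured in the same lists: the genome, the 2 stretches of equal length beside each window, and part of the immunoglobulin kappa locus (Igk, about 68 to 71 Mb of chromosome 6), the light chain locus that B cells use. Differences are on the log2 scale of observed plus 1 over expected plus 1 peaks. They were tested by exact two-sided sign flips over the 8 libraries and adjusted by Benjamini-Hochberg. All 8 lists come from derivatives of one cell line. A stretch that differs the same way in every list reaches the smallest p, here and at the locus end above. These p-values thus show only that the lists agree. How often other stretches of the genome would give as much was not examined. The windows together were sparser than the genome, by -0.45 ± 0.25 (SD; lower in 8 of 8 libraries, exact p = 0.00781, adjusted over 4 tests 0.0156). They were also sparser than Igk, by -0.69 ± 0.37 (8 of 8, exact p = 0.00781, adjusted over 7 tests 0.00911). The 3 loci did not share one density. For regions held by all 8 libraries, the alpha and delta window had 2.63 per Mb, the beta window 0 and the gamma window 3.33, from 1 region. The genome had 2.62 and Igk 3.33 such regions per Mb.

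The alpha and delta window held far fewer peaks than its flanks. It held 5.26 and 13.2 peaks per Mb in FS_Ca replicates 1 and 2, 3.68 and 5.26 in FS_Ia, 13.7 and 3.16 in PS_Ca, and 7.89 and 14.2 in PS_Ia. Its flanks held a mean of 33.4 ± 18.7 peaks per Mb (SD, n = 8), and the difference from them was -1.94 ± 0.29 (lower in 8 of 8 libraries, exact permutation, adjusted p = 0.00911). Against the genome, which held 4.38 to 18.4 peaks per Mb, the difference was -0.28 ± 0.35 (lower in 6 of 8 libraries; exact permutation p = 0.0547, adjusted 0.0547). Without FS_Ca replicate 2 it was -0.33 and without PS_Ca replicate 1 -0.34, each with an adjusted p of 0.0469 by the exact permutation. Those were the only 2 libraries in which the window was denser than the genome. Against Igk the difference was -0.52 ± 0.36 (lower in 8 of 8, exact permutation, adjusted p = 0.00911), but with the windows widened by 100 kb it was -0.28 (exact permutation, adjusted p = 0.128) and the difference from the genome was -0.038 (adjusted p = 0.773).

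The beta window was sparser than every reference. The difference was -2.09 ± 0.54 from the genome (exact permutation, adjusted p = 0.0156), -1.31 ± 0.56 from its flanks and -2.32 ± 0.81 from Igk (exact permutation, adjusted p = 0.00911 for both), each lower in 8 of 8 libraries (SD, n = 8). Its flanks were themselves thin, with 4.83 ± 1.74 peaks per Mb. Among peaks with −log10 q of at least 5 the difference from the flanks was -0.76 (exact permutation, adjusted p = 0.0875).

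The gamma window leaned the other way, but on few peaks. The difference was 0.42 ± 0.37 from the genome (SD; higher in 7 of 8 libraries, exact permutation, adjusted p = 0.0312) and 0.60 ± 0.50 from its flanks (8 of 8, adjusted p = 0.00911). Against Igk it was 0.23 ± 0.51 (higher in 5 of 8, exact permutation, adjusted p = 0.258). The difference from the flanks missed the threshold among peaks with −log10 q of at least 5 (0.34, exact permutation, adjusted p = 0.31), in lists of equal length (0.43, adjusted p = 0.146) and with regions counted in place of peaks (0.38, adjusted p = 0.0547). The bounds also mattered. With the windows narrowed by 50 kb the difference from the genome was -0.0757 (exact permutation, adjusted p = 0.633) and that from the flanks 0.07004 (adjusted p = 0.656). With the windows widened by 100 kb the difference from the genome was 0.0853 (exact permutation, adjusted p = 0.773), while that from the flanks was 0.95 (adjusted p = 0.0109). The difference from the genome also had an adjusted p of 0.0625 by the exact permutation without any one of FS_Ca replicate 1 (0.37), FS_Ia replicates 1 and 2 (0.35 and 0.44), PS_Ca replicate 2 (0.37) or PS_Ia replicate 1 (0.45).

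**Figure D3:**
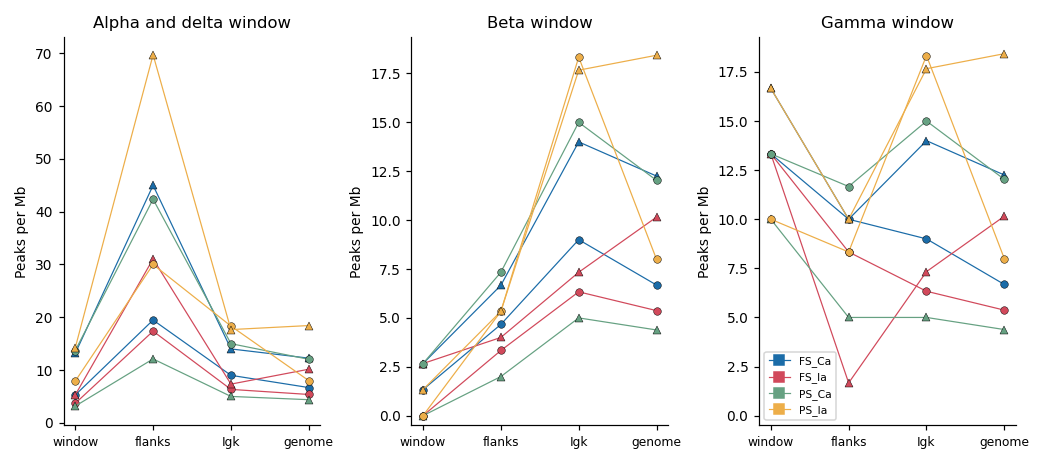
Peaks per Mb in each T cell receptor window, in its 2 flanks, in the Igk comparison window and in the genome; each line is a library, coloured by genotype, with circles for replicate 1 and triangles for replicate 2. The alpha and delta window lies below its flanks, and the beta window below all 3 references, in each of the 8 libraries.

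The T cell receptor regions recurred across libraries about as often as other regions did. Of the 50 regions, 6 (12%) were held by all 8 libraries, against 10.4% of all regions, and 25 (50%) by 1 library, against 52.6%. Of these 25, 10 came from PS_Ia replicate 2, 7 from PS_Ca replicate 1, 4 from FS_Ca replicate 2, 3 from PS_Ia replicate 1 and 1 from FS_Ca replicate 1. The other 19 were found in 2 to 7 libraries. The median list percentile of the 166 peaks was 56.1, against 50.9 for all peaks, while 17.5% of them were among the strongest 10% of their list, against 9.94% of all peaks. The strong ones were nearly all in the alpha and delta window, where the share was 21.4%, against 6.25% in the gamma window and 0% in the beta window. All 29 strong peaks lay at the 6 regions held by all 8 libraries. These shares thus count the same few sites again from list to list.

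**Figure D4:**
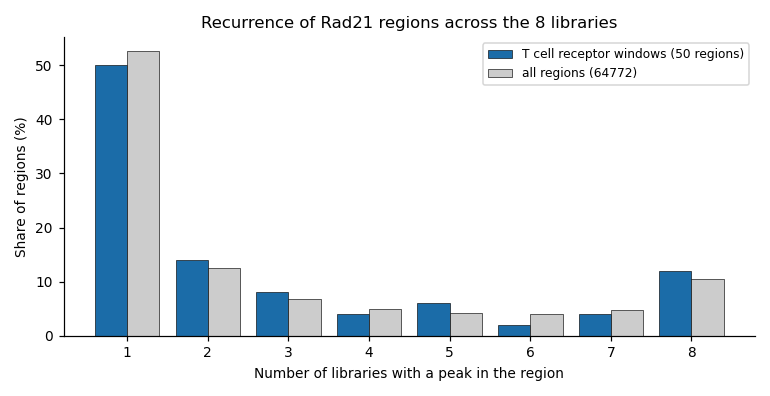
Share of regions by the number of libraries that held a peak there, for the 50 regions of the T cell receptor windows (blue) and all 64772 regions (grey). The bars of both sets are highest at 1 library (50% and 52.6%) and rise again at 8 libraries (12% and 10.4%).

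Orientation of the engineered Igh allele was set against the number of T cell receptor peaks. The lists held 15 and 32 such peaks in FS_Ca replicates 1 and 2, 32 and 9 in PS_Ca, 11 and 16 in FS_Ia, and 18 and 33 in PS_Ia. The replicates of each Ca genotype differed by more than the means of the orientations. The mean was 19.5 ± 9.47 in Ia and 22.0 ± 11.8 in Ca (SD over 4 libraries each). Ia minus Ca was thus -2.5 (exact permutation test, two-sided, p = 0.914; adjusted over 4 contrasts 0.914). Without FS_Ca replicate 2 or PS_Ca replicate 1 the difference was 0.833, without FS_Ia replicate 1 it was 0.333, and without PS_Ia replicate 2 it was -7. Per 10000 peaks of the list, the mean was 7.44 ± 1.147 in Ia and 9.29 ± 1.14 in Ca (SD over 4 libraries each), and Ia minus Ca was -1.85 (exact permutation test, two-sided, p = 0.114; adjusted 0.457). Within the sets of libraries with one name prefix this difference was -2.40 for FS, -1.58 for replicate 1 of PS and -1.02 for replicate 2 of PS. In lists of equal length it was 0 (exact permutation p = 1), and among peaks with −log10 q of at least 5 it was 0.281 (exact permutation p = 0.714).

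Switch length gave no difference beyond the spread either. The mean number of T cell receptor peaks was 23.0 ± 11.6 in PS and 18.5 ± 9.26 in FS (SD over 4 libraries each), and PS minus FS was 4.5 (exact permutation test, two-sided, p = 0.6; adjusted 0.914). Without PS_Ia replicate 2 it was 1.17 and without PS_Ca replicate 2 9.17. Per 10000 peaks the values were 8.50 ± 1.42 and 8.23 ± 1.68, a difference of 0.269 (exact permutation, p = 0.714; adjusted 0.914), which was -0.435 without FS_Ia replicate 2, -0.340 without PS_Ca replicate 1 and 0.907 without FS_Ca replicate 2. These p-values do not show that the numbers were alike.

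No single T cell receptor region was held by all libraries of one level of a factor and by none of the other level. Of the 50 regions, 0 were held by all 4 Ia libraries and no Ca library, and 0 by all 4 Ca and no Ia library, where such regions made up 0.0247% and 0.0232% of all regions. By switch length 0 were PS-only and 0 FS-only, against 0.0401% and 0.00772% of all regions. At shares this low 0 of 50 is near the background. The lowest p for presence in the 50 regions was 0.429 for either factor (Fisher's exact test, two-sided; adjusted over all regions 1), where 4 against 4 libraries allow no p below 0.0286. Even a p of 0.0286 by Fisher's exact test passes the adjustment only if most of all regions reach it. The adjusted test therefore could not single out a region here.

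The 6 regions of all libraries were also ranked among the 6747 regions that every library held, so that each library gives the same number of ranks. The median of their median percentile ranks was 32.8, against 50.8 for all 6747, and their median width was 2892 bp against 2022 bp. The strongest site stood at 0.43 to 2.25 in 7 libraries and at 13.5 in FS_Ia replicate 2. Its mean was 4.21 ± 6.22 in Ia and 1.03 ± 0.57 in Ca (SD over 4 libraries each), which is 3.18 percentile points apart (exact permutation test, two-sided, p = 0.486; adjusted over all 6747 regions 1). The site nearest the window end had the lowest p of the 6 for switch length. It stood at 34.5 ± 19.1 in PS and 61.8 ± 20.5 in FS libraries, a difference of -27.2 points (exact permutation, p = 0.0857; adjusted 0.941), and the groups overlapped: FS_Ca replicate 2 at 32.1 was stronger than PS_Ca replicate 2 at 41.7 and PS_Ia replicate 1 at 56.7. For none of the 6 did the ranks of the 2 levels of a factor stand apart. Ranks that did not overlap were found in 1.33% of the 6747 regions with Ia stronger, 1.38% with Ca stronger, 1.27% with PS stronger and 1.62% with FS stronger. By the exact permutation, 0 of the 6 had an adjusted p of 0.05 or less for orientation or for switch length (0% of all 6747 for each), and 0 had an unadjusted p of 0.05 or less (2.71% and 2.89% of all). The adjusted test could call a region only if most of the 6747 reached the smallest p that 4 against 4 libraries allow. It therefore could not decide for these 6.

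**Figure D5:**
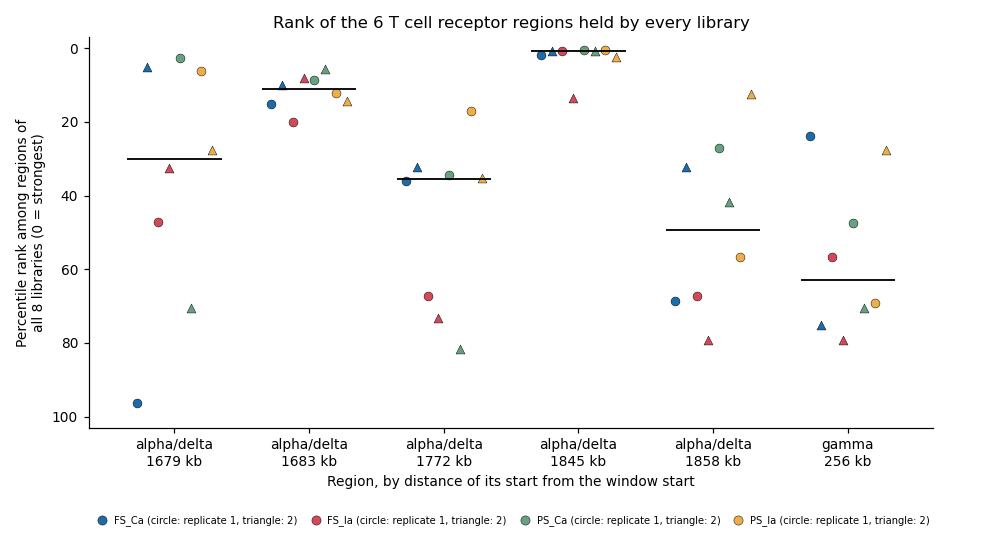
Percentile rank (0 is the strongest, at the top) of the 6 T cell receptor regions held by all 8 libraries, among the 6747 such regions of the genome; each point is a library, coloured by genotype, and black lines are medians over the 8 libraries. The region at 1845 kb of the alpha and delta window is near 0 in all libraries but FS_Ia replicate 2 (13.5). The region at 1683 kb lies between 5.69 and 20.2, and the other 4 spread more widely.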

How the data were processed

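Rad21 ChIP-seq peaks of 8 libraries were used as deposited, with one list of 10 columns per library. Per the submitters' processing notes, the tools were MACS2 2.2.7.1, Bowtie2 2.4.4, deepTools 3.5.1 and SAMtools 1.15.1, on mm9. Settings, read filters and controls are not stated there. For each peak the deposited columns hold a score, the summit's fold enrichment (a ratio), −log10 p, −log10 q and the summit offset, all made by the authors. Fold values rose in equal steps, which gave each list's background and the summit heights in whole fragments (100% whole within 0.01). Poisson −log10 p values computed from them lay a median of at most 7.94e-06 from the deposited −log10 p.

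The windows, the tests and the lists were chosen with earlier results of these data known. Peaks were merged genome-wide at an overlap of 1 bp. Named were the regions of at least 6 libraries, the best-ranked region of each window and the regions beside its widest gap. The remaining beta region, the regions of 2 and 4 libraries in the gamma window, and the PS_Ia replicate 2 peak beside a missing one were named after their values were seen. Peak counts were compared by exact permutation of 4 against 4 libraries (70 assignments), densities by exact sign flips, and presence by Fisher's exact test. Adjustment was by Benjamini-Hochberg. Genome density used the span from first to last peak of numbered chromosomes and X. In the beta window the added peak alone would have set the sign of the planned ratio of the end to the remainder, so only counts are given there. Alternatives were a stricter q, lists of equal length, other window bounds, regions from summits, each library left out and a block by replicate number. Counting regions in place of peaks, the plain difference at the locus end and the values within name prefixes were chosen after seeing the data. Calculations used scipy 1.17.1, pandas 2.3.3 and numpy 2.4.6 under Python 3.11.15, with figures by matplotlib 3.10.9, and were tested on simulated data.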

Additional observations from a re-analysis of the deposited data

Results flagged for a closer look

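Of 52 groups of 4 libraries, 5 had one library whose gap to the nearest other, over the range of the group, passed Dixon's 95% critical value. Chance alone flags about 1 in 20 groups, and these groups share libraries. In the alpha and delta window FS_Ca replicate 2 had 25 peaks, against 10, 7 and 10 in the other FS libraries. It is also the longest of the FS lists, with 31550 peaks. In the gamma window it had 5 peaks, against 4 in each other FS library, a step of 1 peak. The site between the close pair and the strongest site stood at a percentile of 81.8 in PS_Ca replicate 2, the shortest list, against 32.1 to 36.0 in the other Ca libraries. The strongest site stood at a percentile of 13.5 in FS_Ia replicate 2, against 0.43 to 2.25 in the other Ia libraries and 0.712 to 1.86 in the other FS libraries. FS_Ia replicate 2 has the lowest background of the 8 lists, 0.223 fragments. The part of list length or background in these values was not tested.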

How the results depend on the processing

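The locus end of the alpha and delta window, its density below the flanks, the beta window's density below the genome and Igk, and the density of all windows below the genome and Igk kept their direction and their side of the 0.05 threshold under every alternative run on them, among these the stricter q, equal list lengths, both other bounds and each library left out. Under other bounds the 200 kb end was counted from the moved window end, so a different stretch was compared with the remainder. Its log2 difference was 2.39 with windows widened by 100 kb and 3.82 with windows narrowed by 50 kb. The numbers of regions called specific to a factor stayed at 0. Differences below are log2 values unless they are peaks.

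With −log10 q of at least 5, Ia minus Ca was 0.5 peaks and 0.281 per 10000 peaks, the alpha and delta window differed from the genome by -0.25 (now past the threshold), the gamma window by 0.34 from the genome and 0.34 from its flanks, the beta window by -0.76 from its flanks (none of these 3 past it), and 24 regions were left. In lists of equal length, PS minus FS was -1 peak and -0.886 per 10000 peaks, alpha and delta against the genome -0.37 (past it), gamma against its flanks 0.43 (not past it), and 16 regions were left. With windows widened by 100 kb, alpha and delta against the genome was -0.038 (exact permutation, adjusted p = 0.773), gamma against the genome 0.0853, alpha and delta against Igk -0.28 and gamma against Igk -0.13. With windows narrowed by 50 kb, alpha and delta against the genome was -0.44 (past it), and gamma was -0.0757 against the genome, 0.07004 against its flanks and -0.24 against Igk. Summits ± 100 bp gave 78 regions in place of 50. With regions counted in place of peaks, PS minus FS was -0.103 per 10000, alpha and delta against the genome -0.31 (past it) and gamma against its flanks 0.38 (not past it). Within replicate 2 of the PS genotypes, which pairs the shortest list with the longest, Ia minus Ca was 24 peaks, against -14 within replicate 1 of PS and -10 within FS. The bounds, the q limit and the list length decide how many peaks enter; beyond this construction the cause was not tested.

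Leaving out one library at a time moved Ia minus Ca between -7 and 0.833 peaks, PS minus FS between -0.435 and 0.907 per 10000 peaks, alpha and delta against the genome between -0.34 and -0.19, and gamma against the genome between 0.35 and 0.50.

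Replicate numbers are not tied to shared cultures by the labels. The deviations of same-numbered libraries, over ranks of the regions of all 8 libraries, correlated between -0.202 and 0.325 over the 6 pairs of genotypes, so the numbers were not taken to pair libraries. With the replicate number as a block, the differences were unchanged at -2.5 peaks for orientation (exact permutation p = 0.889) and 4.5 peaks for switch length (exact permutation p = 0.611). The block allows no p below 0.0556, so it could not have made a call for the counts or for the ranks of shared regions (0 calls).

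The lowest called summits were 3 to 5 fragments high, and 5 in both the shortest and the longest list, so they did not follow list length. A region missing from any list is only under the calling limit of that list.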
